A study of Mus musculus with 2 samples.

Results

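The genes described here encode the moving and building parts of the cytoskeleton: kinesins (Kif), alpha-, beta- and gamma-tubulins (Tuba, Tubb, Tubg), cytoplasmic dynein subunits (Dync, Dynl), and the heavy and light chains of conventional myosins (Myh, Myl). They were selected by gene name alone, as every record whose symbol begins with one of these stems followed by its member number or subunit letter. The rule found 128 records of 96 genes among 37178 records of 29833 genes, where a record is 1 gene with 1 transcript type, protein-coding or long noncoding RNA (lncRNA). They comprised 56 kinesin records of 39 genes, 20 tubulin records of 17 genes, 19 dynein records of 15 genes, 18 myosin heavy chain records of 14 genes and 15 myosin light chain records of 11 genes. The name rule also takes in Kif1bp, a kinesin-binding protein that is not a motor, and Kif16bos, a transcript opposite to Kif16b.

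Total RNA was sequenced from F123 cells, a male mouse embryonic stem cell (mESC) line, in 2 biological replicates, without other groups or treatments. The line is a hybrid F1 of S129/Jae and Cast mice, so that each read over a variant can be assigned to the CAST or the S129 genome. The paper gives CAST as the paternal and S129 as the maternal genome, without the reverse cross. Effects of strain and of parent of origin therefore cannot be told apart here. The cells had been kept on embryonic fibroblast feeders and were moved to gelatin without feeders, at a doubled LIF concentration, before harvest. Positions below are in mm10 (GRCm38), as the deposited table gives them. The table holds both replicates as 1 sum, and all intervals and p-values below therefore cover counting error in a single line and not the spread between cultures. A gene was called allele-specifically expressed (ASE) when the CAST and S129 reads differed at least 2-fold, with an adjusted p of at most 0.05 in a two-sided exact binomial test (Benjamini-Hochberg over 18632 records with reads) and with a level of at least 1 TPM, where TPM is the reads of a transcript scaled by its length and by library size.

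Microtubules are polymers of alpha- and beta-tubulin pairs that grow from gamma-tubulin rings. Most kinesins walk along them towards the growing end, cytoplasmic dynein walks in the opposite direction, and in dividing cells both motor classes assemble and position the spindle. Conventional myosin is a hexamer of heavy chains with essential and regulatory light chains that contracts actin filaments, and the nonmuscle forms close the cleavage furrow.

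All 8 listed mESC markers were present, from 24.4 TPM for Esrrb to 381 TPM for Dppa5a. Of 9 fibroblast markers, 5 reached 1 TPM, with Acta2 highest at 8.77 TPM, and their sum was 24.7 TPM against 1410 TPM for the mESC markers. Of 6 striated muscle markers, 2 reached 1 TPM, which were Des at 6.28 TPM and Acta1 at 2.53 TPM, while Myod1 was at 0.071 TPM. Of the ciliated cell markers, Foxj1 was at 7.76 TPM and Dnah5 at 0.0302 TPM. Of 4 neuron markers, 2 had a record, Map2 at 0.22 TPM and Rbfox3 at 0.0847 TPM. Whether the fibroblast transcripts came from remaining feeder cells was not tested. The table holds 16343693 allelic reads, of which 50.4% were from CAST.

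Several of these genes lie in clusters of close copies, and their coding sequences, read from the GENCODE models of GRCm38, show how few positions a read can use to tell the copies apart. The last 75 coding bases before the stop codon are shown because 75 bases is also the read length. Capitals mark positions at which the copies differ. Tubb2a (chr13:34074471-34074545, minus strand) and Tubb2b (chr13:34127474-34127548, minus strand) encode beta-tubulins and differ here at 3 bases.
Tubb2a: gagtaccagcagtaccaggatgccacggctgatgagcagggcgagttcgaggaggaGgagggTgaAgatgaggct
Tubb2b: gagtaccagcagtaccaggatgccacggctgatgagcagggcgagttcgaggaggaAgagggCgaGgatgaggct
The dynein light chain genes Dynlt1a, Dynlt1b, Dynlt1c and Dynlt1f on chromosome 17 share all 75 bases, which come from 2 exons in each gene.
Dynlt1a, Dynlt1b, Dynlt1c and Dynlt1f: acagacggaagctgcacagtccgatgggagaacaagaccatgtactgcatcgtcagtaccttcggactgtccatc

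Over the whole coding sequence, Tuba1a and Tuba1b differed at 23 of 1353 bases and Tubb2a and Tubb2b at 47 of 1335 bases. Dynlt1a, Dynlt1c and Dynlt1f were identical over all 339 coding bases, and Dynlt1b differed from them at 1 base. Myl12a and Myl12b differed at 18 of 516 bases and Tuba3a and Tuba3b at 41 of 1350 bases. The copies of each set shown here therefore can be separated by reads only at these positions and outside the coding sequence.

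At a level of at least 1 TPM, 93 of the 128 records, from 66 of the 96 genes, were expressed. Since TPM is scaled by length, levels can be set side by side between genes, although the length used for the scaling was not given in the sources used here. Each gene is given by its record with the highest TPM, which for Kif5c, Kif14, Kif23, Dynll1, Myh10 and Myl6, among others, was the lncRNA record. The beta-tubulin genes Tubb4b at 531 TPM and Tubb5 at 450 TPM had the highest levels. Tuba1b (160 TPM) and Tuba1a (81.4 TPM) followed among the tubulins, with Tubb2b between them. Together, the tubulin genes summed to 1615 TPM, the kinesins to 393 TPM, the dynein subunits to 391 TPM, the light chains to 250 TPM and the heavy chains to 35.2 TPM. For Tuba1b the deposited exon TPM was 82.9, lower than the 160 of the whole transcript, and for Kif11 the values were 11.3 and 20.5. By exon TPM, Tuba1b therefore stood below Tubb2b (160) and Tuba1a (103), although it was the highest of these 3 by whole transcript. The lncRNA record of Kif24 was at 3.86 TPM over the transcript and at 0.848 TPM over its exons, which is under the threshold. The order of genes and single calls of expression thus depend on which of the deposited measures is used, and no replicate spread was available to separate neighbors in that order.

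**Figure D1:**
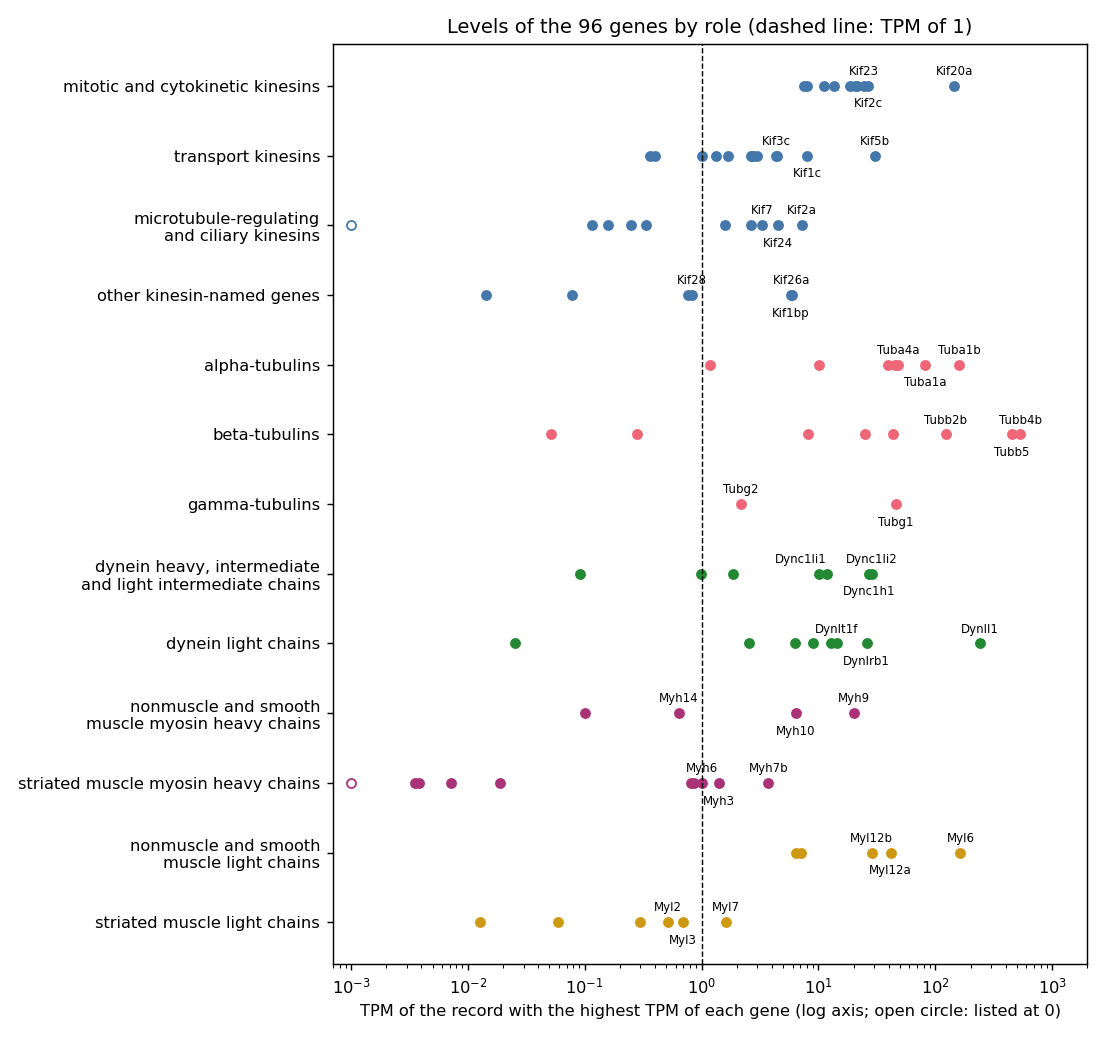
TPM (log axis) of the record with the highest TPM of each of the 96 genes, in rows by role. Each point is 1 gene, open circles are the 2 genes listed at 0, and the dashed line is the expression threshold of 1 TPM. All 10 mitotic and cytokinetic kinesins with a record lie above it, whereas most of the striated muscle chains lie below.

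Of the kinesins with a record that drive mitosis and cytokinesis, 10 of 10 genes were at or above 1 TPM. No member record lies on chromosome X or belongs to Kif4, so that the set may be incomplete. Kif20a, which brings the chromosomal passenger complex to the central spindle, was at 145 TPM. Kif2c, a depolymerase of centromeric microtubules, was at 26.6 TPM. Kif23, the motor of centralspindlin, was at 24.4 TPM in its lncRNA record and at 16.1 TPM in its coding record. Kif18b, which acts on astral microtubule ends, was at 21.3 TPM, and Kif11, which slides spindle microtubules apart, at 20.5 TPM. By its highest record, the lowest of these 10 genes was Kif18a, which dampens chromosome movements, at 7.5 TPM. The coding record of Kif14 was lower, at 5.48 TPM, but its lncRNA record was at 8.02 TPM. Of the 13 transport kinesins, 11 were expressed. Kif5b, the ubiquitous heavy chain of kinesin-1, was at 30.3 TPM, and its paralogs Kif5c (1.68 TPM) and Kif5a (1.34 TPM), known from neurons, were near the threshold. Kif1a and Kif17, also known from neurons, stood below it at 0.361 and 0.399 TPM. Among the regulating and ciliary kinesins 5 of 10 genes were expressed, and Kif2b was listed at 0.

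Dynll1, the LC8 light chain that serves many complexes besides dynein, was the highest dynein gene at 239 TPM. The highest record of Dync1li2, a light intermediate chain, was a short lncRNA record at 28.5 TPM, whereas its coding record was at 8.03 TPM. The heavy chain Dync1h1, which carries the motor, was at 27.3 TPM, the roadblock light chain Dynlrb1 at 25.9 TPM and Dynlt1f at 14.3 TPM. The heavy chain of ciliary transport, Dync2h1, was at 0.981 TPM, just under the threshold. Dynlrb2 (0.0256 TPM) and Dync1i1 (0.0918 TPM) were far under it, against 25.9 TPM and 10.1 TPM for their paralogs Dynlrb1 and Dync1i2.

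Nonmuscle myosin II was represented by Myh9 at 20.2 TPM and Myh10 at 6.42 TPM, with the third heavy chain, Myh14, at 0.638 TPM. Their light chains were Myl6 (essential chain, 164 TPM), Myl12a (41.4 TPM) and Myl12b (28.5 TPM), the regulatory chains, with Myl9 at 7.03 TPM and Myl6b at 6.46 TPM. Of the 10 striated muscle heavy chains, 3 reached 1 TPM, namely Myh7b (3.73 TPM, its lncRNA record), Myh3 (1.41 TPM) and Myh6 (1.01 TPM), and Myh8 was listed at 0. Of the 6 striated muscle light chains within the name rule, Myl7 alone did, at 1.61 TPM. Mylpf, a fast muscle light chain that the name rule leaves out, was at 26.5 TPM. These levels stand beside the muscle markers above, of which 4 of 6 were also under 1 TPM. In bulk RNA, few cells with a transcript and a low level in all cells cannot be told apart.

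Most promoter windows of the mitotic kinesins held a short sequence that the name rule did not use. The motif TTTGAA, the core of the cell cycle genes homology region, was searched on both strands (as TTTGAA or TTCAAA) in windows from 250 bases before to 50 bases after the start site of RefSeq genes on GRCm38.p6. It was found in 7 of 8 windows of mitotic kinesins (87.5%) that lay within 250 bases of the start of the expression record. The share was 17.9% over all 32851 windows of the table, 0 of 9 among transport kinesins and 15.9% over the 63 member genes with such a window. For 17 member genes the table held no window and for 16 more the window was farther away. Kif11 (chr19:37376132-37376431, plus strand) and Kif23 (chr9:61946750-61947049, minus strand) are shown because their matches lie near the start site, at positions -19 and 2 from it, and capitals mark the match.
Kif11: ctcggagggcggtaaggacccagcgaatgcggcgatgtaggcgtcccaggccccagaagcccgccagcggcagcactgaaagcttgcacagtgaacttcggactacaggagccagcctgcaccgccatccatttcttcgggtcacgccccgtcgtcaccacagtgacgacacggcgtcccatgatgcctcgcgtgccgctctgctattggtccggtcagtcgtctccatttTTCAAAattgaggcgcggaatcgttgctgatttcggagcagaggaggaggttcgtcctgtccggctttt
Kif23: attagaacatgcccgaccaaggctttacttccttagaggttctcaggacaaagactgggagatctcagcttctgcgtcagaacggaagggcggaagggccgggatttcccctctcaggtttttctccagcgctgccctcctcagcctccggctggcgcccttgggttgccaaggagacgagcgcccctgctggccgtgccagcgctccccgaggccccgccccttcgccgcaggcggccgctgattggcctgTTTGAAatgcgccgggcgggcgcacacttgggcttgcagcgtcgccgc
A match is a description of these letters and not a tested binding site.

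Of the 93 expressed records, 85 records of 61 genes carried at least 1 variant with reads and could be tested, with 10 to 8682 allelic reads and a median of 597. The other 8 records had no variant, among them Tubb5, the beta-tubulin at 450 TPM, and no allelic value is given for them. A total of 20 records of 17 genes were ASE. That is 23.5% of the tested member records, against 14.1% of all 15935 tested records. The CAST allele was higher in 12 records of 10 genes, where the background over all records is 8.33%, and the S129 allele was higher in 8 records of 7 genes, with a background of 5.78%. Summed over all member records, 49.9% of the reads were from CAST, where reads held by both records of a gene count in each. Between 40% and 60% CAST lay 50 of the 85 member records, against 10734 of all 15935 tested records.

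By family, the ASE records were 4 of 42 for kinesins (9.52%), 7 of 15 for tubulins (46.7%), 5 of 15 for dynein subunits (33.3%), 1 of 6 for myosin heavy chains (16.7%) and 3 of 7 for myosin light chains (42.9%). No ASE record was found among the 15 records of mitotic kinesins, the 6 of dynein heavy, intermediate and light intermediate chains or the 4 of nonmuscle myosin heavy chains. Their median numbers of variants were 42, 49 and 41, and of all tested records with 30 or more variants only 6.33% were ASE. So few records cannot set 0 apart from that share. Of the dynein light chains, with a median of 6 variants, 5 of 9 records were ASE, all towards CAST. These families also differed in the number of variants, with a median of 6 per tubulin record and 17.5 per kinesin record. Over all tested records, the share that was ASE was 20.9% with 3 to 9 variants, 12.2% with 10 to 29 variants and 6.33% with 30 or more. Among members the counts were 9 of 25, 6 of 23 and 1 of 25 in these ranges, and 4 of 12 with 1 or 2 variants, where the background is 19.4%. The part of the number of variants in the family counts was not tested.

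**Figure D2:**
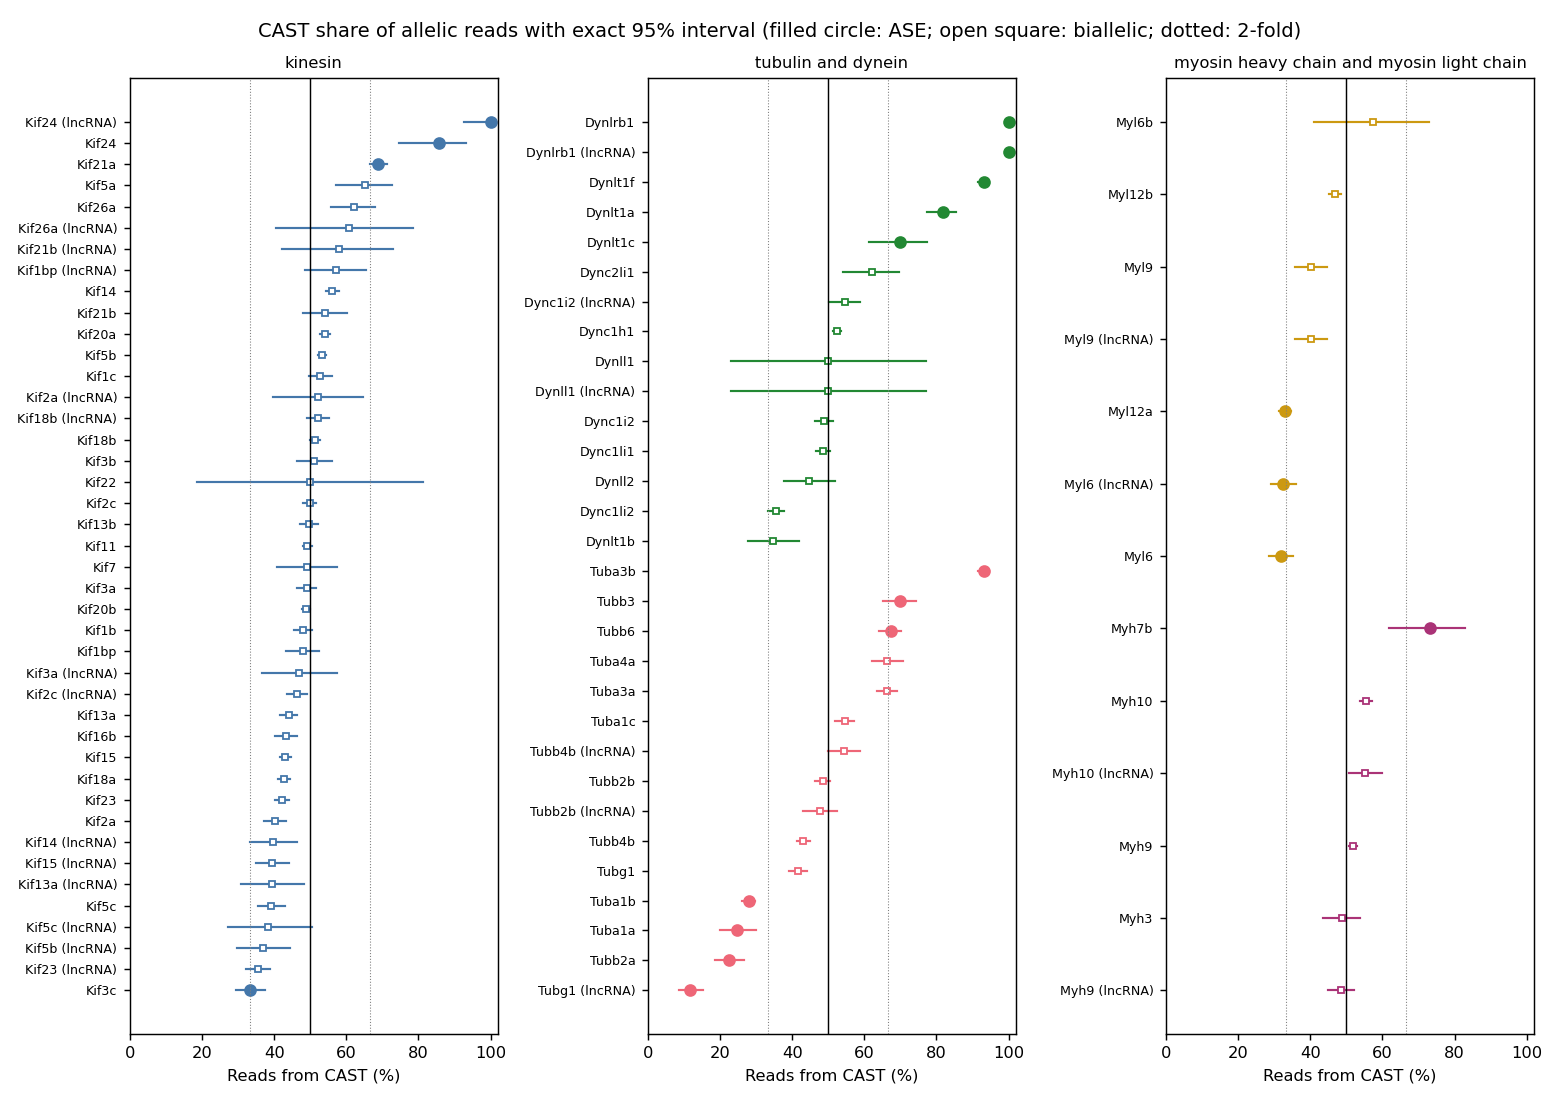
Share of allelic reads from CAST (in %) for each of the 85 tested records, with exact 95% intervals, in panels for kinesins, for tubulins (red) with dynein subunits (green), and for myosin heavy (purple) and light chains (yellow). Filled circles are the 20 ASE records and open squares are biallelic, the solid line is equal expression, and the dotted lines are a 2-fold difference. Most kinesins lie between the dotted lines, whereas tubulins and dynein light chains spread from 11.6% to 100%.

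Among the dynein light chains, Dynlrb1 (chr2:155236608-155250135, plus strand), which binds the intermediate chains, had 597 reads from CAST and 0 from S129, at 2 exonic variants. The exact 95% interval of its CAST share was 99.4 to 100%. With S129 set to 3 reads, the CAST excess was 199-fold, which is an approximate lower bound and not the exact limit. The coding and lncRNA records of Dynlrb1 held the same reads and are 1 observation. Both variants carry the non-reference base on CAST, whereas 77.1% of the 616 variants of other genes within 500 kb carry it on S129, against 11.1% over all variants of the table. Of the 23 tested records within that distance, 2 were ASE towards CAST and 0 towards S129. Whether the assignment of these 2 variants to the parental genomes had a part in the monoallelic reads was not tested.

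The Tctex light chains of the chromosome 17 cluster link dynein to cargo. Dynlt1f had 1143 CAST and 85 S129 reads (93.1% CAST, 95% interval 91.5 to 94.4%), Dynlt1a had 318 and 71 (81.7%, 77.5 to 85.5%), and Dynlt1c had 95 and 41 (69.9%, 61.4 to 77.4%). All 3 were ASE towards CAST. The fourth gene, Dynlt1b, had 64 and 121 reads (34.6%, 27.8 to 41.9%), on the opposite side and not ASE. For these genes, 53.2% (Dynlt1a), 82.6% (Dynlt1b), 90.6% (Dynlt1c) and 89.2% (Dynlt1f) of all 75-base windows of the spliced transcript occur unchanged in a transcript of another gene, mostly one another. The difference between Dynlt1b and Dynlt1c was -2.13 on the log2 scale (-2.82 to -1.45, Fisher's exact test, adjusted p = 1.01e-09). A single read of 75 bases within such a window cannot tell the copies apart. The reads were paired, however, and the authors kept variants of high mappability. Whether the second read of a pair placed it was not examined. These shares describe the spliced transcript, however, whereas 5 of the 6 variants of Dynlt1a, 7 of 8 of Dynlt1b, 5 of 7 of Dynlt1c and 5 of 7 of Dynlt1f are intronic. How alike the introns of these genes are was not examined, and the values of the single genes are uncertain.

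Other dynein subunits were closer to balance. Dync1h1 had 52.4% CAST in 7157 reads, Dync1i2 48.8% in 1736 reads and Dync1li1 48.5% in 2597 reads. Dync1li2 had 653 CAST and 1187 S129 reads (35.5%), a log2 fold change of -0.86 that missed the 2-fold minimum. The light intermediate chains, which alternate in the dynein complex, differed from each other by 0.77 (0.60 to 0.95, Fisher's exact test, adjusted p = 2.64e-17). The methods of the study give a minimum of 20 reads per variant, which several records of the table do not reach. Dynll1, although among the highest genes at 239 TPM, had only 14 allelic reads at 1 variant, 7 from each genome, which gives an interval from 23 to 77%. Dynll2 had 88 and 109 reads (44.7%).

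Among the alpha-tubulins, Tuba1a had 73 CAST and 223 S129 reads (24.7%, 19.9 to 30%) and Tuba1b 647 and 1675 (27.9%, 26 to 29.7%). Both were ASE towards S129, with log2 fold changes of -1.61 ± 0.19 (SE) and -1.37 ± 0.07. Their difference was -0.24 (-0.64 to 0.16) and did not pass the test (Fisher's exact test, adjusted p = 0.353). Tuba1c, the third gene of the cluster, had 754 and 629 reads (54.5%) and was biallelic. It differed from Tuba1b by more than 3-fold, with a log2 difference for Tuba1b minus Tuba1c of -1.63 (-1.83 to -1.43, Fisher's exact test, adjusted p = 4.17e-57). The share of 75-base windows found in another gene was 56.3% for Tuba1a, 76% for Tuba1b and 56.7% for Tuba1c, in the spliced transcript, while 19 of the 22 variants of Tuba1b are intronic. Tuba1a and Tuba1b are also covered, on the same strand, over 96.1% and 77.3% of their length by a record that reads through both, Gm49450, with 743 CAST and 1657 S129 reads. Reads of the 2 tubulin genes and this record cannot be told apart in the table.

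Tuba3b (chr6:145615757-145621479, plus strand), an alpha-tubulin known from testis, had 940 CAST and 69 S129 reads (93.2%, 91.4 to 94.6%) at 19 variants and 45.3 TPM. Its paralog Tuba3a had 764 and 388 reads (66.3%, 63.5 to 69%), a log2 fold change of 0.98 that lay just under the minimum. Tuba4a, with 322 and 163 reads at 2 variants, also stood at 0.98. Both Tuba3 genes were thus higher from CAST, and they shared 18.9% (Tuba3b) and 19.9% (Tuba3a) of their windows with other transcripts. All 19 variants of Tuba3b carry the non-reference base on CAST, while 40.8% of the 120 variants of genes within 500 kb carry it on S129.

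Among the beta-tubulins, Tubb2a had 103 CAST and 357 S129 reads (22.4%, 18.7 to 26.5%), whereas its neighbor Tubb2b had 1154 and 1232 (48.4%, 46.3 to 50.4%). The difference was -1.70 on the log2 scale (-2.04 to -1.36, Fisher's exact test, adjusted p = 3.21e-25). The share of windows found in another gene was 43.2% for Tubb2a and 32.2% for Tubb2b. Tubb6 had 629 and 305 reads (67.3%, 64.2 to 70.3%) and was ASE towards CAST with an interval that includes the 2-fold limit. Intervals of the ASE records of Dynlt1c, Kif21a, Kif3c, Tubb3, Myh7b, Myl12a and Myl6 also include this limit. For all of these records the fold minimum was met by the point value only. Tubb3, known from neurons, had 302 and 130 reads (69.9%) at 8.1 TPM. All of Tubb3 lies on the same strand inside a read-through record, Gm20388, which was itself near balance with 46074 CAST and 43760 S129 reads. Reads of Tubb3 and of Gm20388 cannot be told apart in the table. Tubb4b, the highest of all member genes, had 1157 and 1531 reads (43%, 41.2 to 44.9%) and was biallelic.

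Tubg1 (chr11:101119938-101126419, plus strand), the gamma-tubulin that nucleates microtubules, gave different calls for its records. The coding record had 705 CAST and 991 S129 reads at 17 variants (41.6%) and was biallelic. The lncRNA record, which lies inside it (chr11:101124500-101125828), had 46 and 349 reads at 4 of these variants (11.6%, 8.65 to 15.2%), and was ASE towards S129 with a log2 fold change of -2.92 ± 0.23 (SE). The other 13 variants of the gene held 659 and 642 reads, or 50.7% CAST (47.9 to 53.4%). The S129 excess of Tubg1 was thus measured at 4 variants, which are exonic in the lncRNA record, while the rest of the gene was near balance. Both parts differed (Fisher's exact test, adjusted p = 3.52e-47). The paralog Tubg2, at 2.17 TPM, had no variant. It shares 7.64% of the windows of the Tubg1 coding transcript and 3.86% of those of the lncRNA record.

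A comparison of the same kind was possible for 15 of the 32 member genes with 2 records, because the variants of an lncRNA record that lies inside the coding record are a part of that record's variants. In all 3170 nested pairs of the table the lncRNA counts did not exceed the coding counts. Of the 15 genes, 7 differed between the lncRNA record and the rest at counting error. The test takes all reads as independent, and correlated reads were not tried for this comparison. How often the parts differ over all nested pairs of the table was not counted, so that 7 of 15 has no background. Besides Tubg1 these were Kif24, Tubb4b, Kif14, Kif23, Kif2c and Kif1bp. For Tubb4b the lncRNA record had 273 CAST and 230 S129 reads (54.3%) and the rest 884 and 1301 (40.5%, Fisher's exact test, adjusted p = 1.54e-07). For Kif14, which acts in cytokinesis, it had 91 and 139 reads (39.6%) and the rest 1724 and 1279 (57.4%, Fisher's exact test, adjusted p = 7.1e-07). In Kif14 the intervals of the parts lay on opposite sides of 50%, whereas in Tubb4b the interval of the lncRNA record (49.8 to 58.7%) included it. The coding transcript of Tubb4b shares 37.8% of its windows with other transcripts, mostly the pseudogene Tubb4b-ps1, and its lncRNA record 1.59%. For Kif23 the lncRNA record had 282 and 513 reads (35.5%) and the rest 763 and 926 (45.2%, Fisher's exact test, adjusted p = 1.42e-05). Kif2c (46.3% against 52.8%, Fisher's exact test, adjusted p = 0.00174) and Kif1bp (57.1% against 44.1%, adjusted p = 0.026) also passed. The other 8 genes had adjusted p-values from 0.0852 for Myh9 to 1 for Kif26a and Kif5c.

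**Figure D3:**
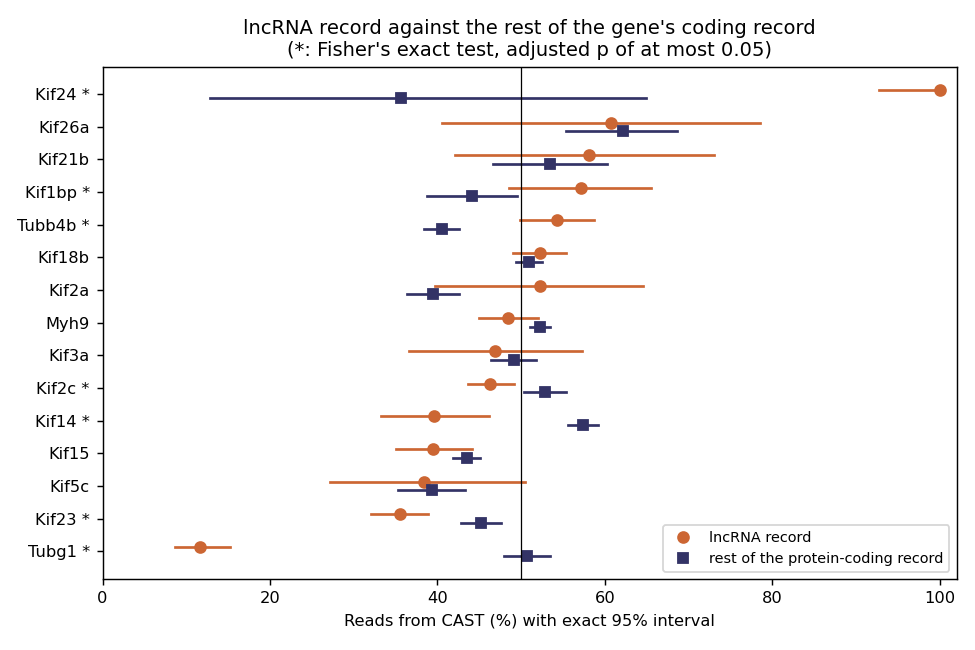
Share of reads from CAST (in %) in the lncRNA record (circles) and in the remaining variants of the coding record (squares) for the 15 genes that allow the comparison, with exact 95% intervals. Asterisks mark the 7 genes whose parts differed at counting error. For Tubg1 the points lie at 11.6% and 50.7%.

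Kif24 (chr4:41390745-41464840, minus strand), a kinesin that restrains the assembly of cilia, had 54 CAST and 9 S129 reads in its coding record (85.7%, 74.6 to 93.3%), at 2 variants. A single intronic variant shared with the lncRNA record carried 49 and 0 of these reads (100% CAST, 92.7 to 100%). With S129 set to 3 reads, the CAST excess at this variant was 16.3-fold, again an approximate lower bound. The other variant had 5 and 9 reads (35.7%, 12.8 to 64.9%), and the difference passed the test (Fisher's exact test, adjusted p = 4.23e-07). The call of Kif24 therefore rested on 1 variant. Both variants carry the non-reference base on S129, which holds for 0.515% of the 388 variants of genes within 500 kb.

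The other ASE kinesins were Kif21a and Kif3c. Kif21a, a kinesin that limits microtubule growth at the cell edge, had 1116 CAST and 503 S129 reads (68.9%, 66.6 to 71.2%) over 52 variants, at 1.58 TPM. Its paralog Kif21b, with 142 and 120 reads (54.2%), differed from it by 0.91 (0.52 to 1.29, Fisher's exact test, adjusted p = 1.11e-05). Kif3c, an alternative partner of Kif3a in kinesin-2, had 175 and 350 reads, a ratio exactly at the 2-fold limit (33.3% CAST, 29.3 to 37.5%). A noncoding transcript on the opposite strand, Gm48512, covers 89.1% of Kif3c and had 136 and 87 reads. The strand setting of the allelic counts was not given in the sources used here, so that reads of the overlapping pair cannot be told apart.

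Biallelic kinesins with many reads could be placed near balance with narrow intervals. Kif11 had 2962 CAST and 3061 S129 reads (49.2%, 47.9 to 50.4%), Kif20b 4120 and 4307 (48.9%, 47.8 to 50%) and Kif18b 2494 and 2377 (51.2%, 49.8 to 52.6%). Kif20a had 54.2% CAST and Kif5b 53.2%. Shifts under 2-fold with intervals below 50% were seen for the coding records of Kif13a (44%), Kif16b (43.3%), Kif15 (43.1%), Kif18a (42.7%), Kif23 (42.1%), Kif2a (40.3%) and Kif5c (39.2%). Shifts towards CAST with intervals above 50% were seen for Kif5a (65.2%, 57.2 to 72.6%), Kif26a (62%, 55.7 to 68%) and Kif14 (56.1%, 54.4 to 57.9%), besides Kif20a and Kif5b. Kif22, a chromosome arm motor at 13.6 TPM, had 5 and 5 reads, for which a 2-fold difference was not detectable. Motor subunits that work as a pair in kinesin-2, Kif3a (49%) and Kif3b (51.1%), differed by -0.13 (-0.43 to 0.18, Fisher's exact test, adjusted p = 0.522).

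Among the myosin chains, the ASE records of the light chains were all towards S129. Myl6 had 245 CAST and 523 S129 reads in its coding record (31.9%, 28.6 to 35.3%) and 250 and 521 in its lncRNA record, which lies over the same variants for the most part. Processed copies of Myl6 share 40.8% of the windows of its coding transcript. Myl12a had 934 and 1904 reads (32.9%, 31.2 to 34.7%) over 25 variants, while Myl12b, beside it on chromosome 17, had 1685 and 1910 (46.9%). The 2 regulatory chains differed by -0.85 (-0.99 to -0.70, Fisher's exact test, adjusted p = 8.41e-29). A read-through record on the same strand, Gm49909, covers 96.1% of Myl12a and 94.4% of Myl12b and had 2359 and 3510 reads. Reads of these 2 genes and this record cannot be told apart in the table. Myl9 had 40.1% CAST and was biallelic, and Myl6b had 23 and 17 reads.

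Of the heavy chains, Myh9 had 3991 CAST and 3706 S129 reads (51.9%, 50.7 to 53%) and Myh10 1752 and 1408 (55.4%, 53.7 to 57.2%). They differed by -0.21 (-0.33 to -0.09, Fisher's exact test, adjusted p = 0.00135), a small shift at this depth. Myh7b, a slow muscle type chain whose gene also holds a microRNA, was ASE towards CAST with 55 and 20 reads at 1.57 TPM (73.3%, 61.9 to 82.9%). All 7 variants of Myh7b carry the non-reference base on CAST, while 50.8% of the 488 variants of genes within 500 kb carry it on S129. Whether the assignment of variants had a part in this call was not tested. Myh3, the embryonic muscle chain, had 183 and 193 reads (48.7%). Below the expression threshold, Kif28 (53 and 16 reads, 0.831 TPM) and Myl4 (38 and 8 reads, 0.298 TPM) also passed the fold and p limits.

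**Figure D4:**
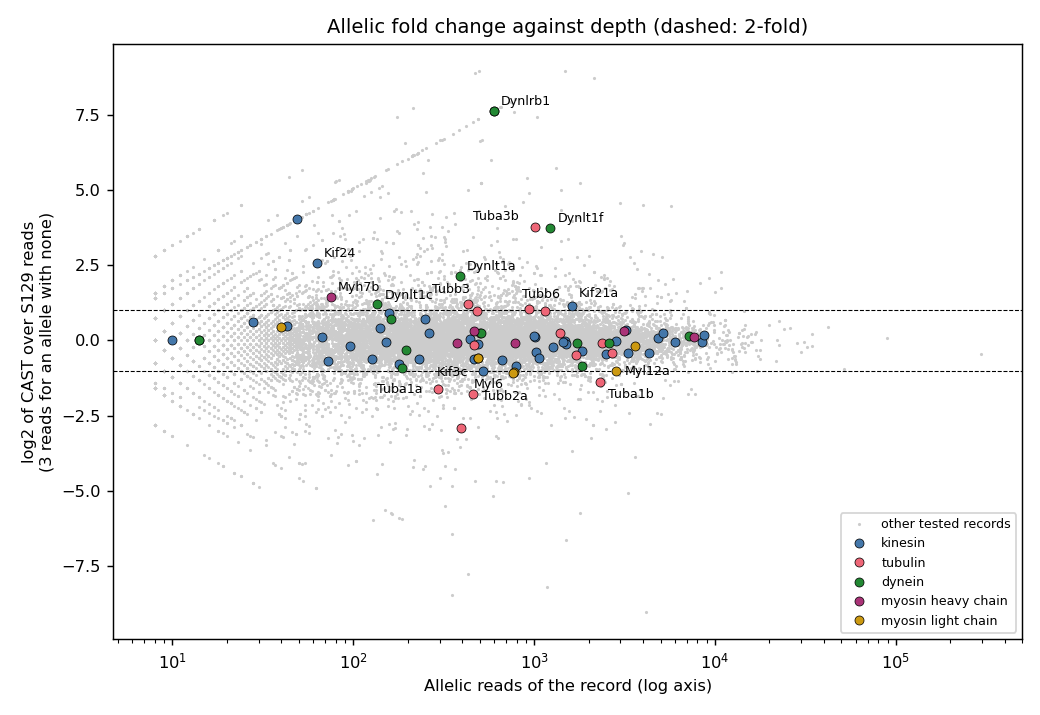
Log2 of CAST over S129 reads against the number of allelic reads (log axis) for all 15935 tested records (grey) and the 85 member records (colored by family), with dashed lines at 2-fold and 3 reads set for an allele without reads. Coding records that were ASE are named. Dynlrb1, Dynlt1f, Tuba3b and the unnamed lncRNA record of Kif24 stand above 3 on the log2 scale, and most members with many reads lie between the dashed lines.

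Over the 24 listed pairs of subunits of 1 motor or of close paralogs, 21 had reads in both genes, and 15 of these differed in their CAST share at counting error. The named pairs above range from Kif3a with Kif3b, whose interval includes 0, to Dynlt1b with Dynlt1c. Other kinesin pairs that differed were Kif5b and Kif5c (0.82, 0.59 to 1.06), Kif5a and Kif5b (0.72, 0.24 to 1.19), Kif20a and Kif23 (0.70, 0.57 to 0.84), Kif2a and Kif2c (-0.56, -0.77 to -0.36), Kif18a and Kif18b (-0.50, -0.62 to -0.37), Kif13a and Kif13b (-0.33, -0.53 to -0.13) and Kif1b and Kif1c (-0.27, -0.51 to -0.04). The essential light chains Myl6 and Myl6b differed by -1.50 (-2.43 to -0.57). The pairs Dynll1 and Dynll2, Dync1h1 and Dync2h1, Dync1i1 and Dync1i2, and Myh9 and Myh14 did not pass, and their intervals reach from -2.74 to 1.87. If the reads of a gene were correlated with a coefficient of 0.01, 3 pairs would pass, namely Tuba1b with Tuba1c, Tubb2a with Tubb2b and Dynlt1b with Dynlt1c, and with 0.05 none would. At 0.05 a gene counts for at most 20 independent reads, so that this test has little reach.

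**Figure D5:**
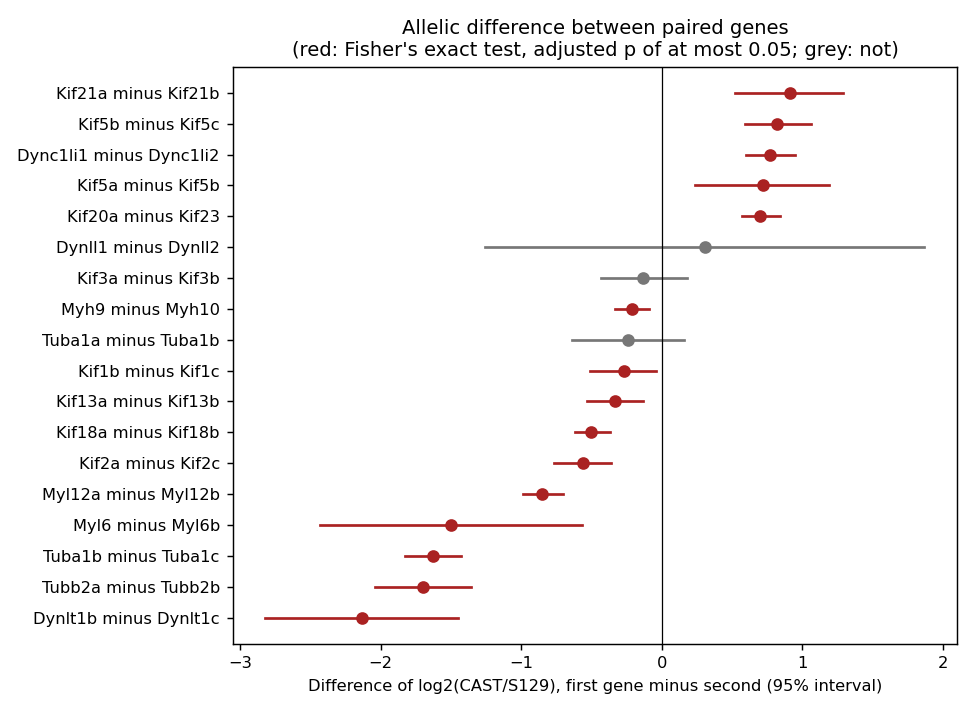
Difference of the log2 CAST over S129 ratio between paired genes (first minus second) with 95% intervals, for the 18 pairs in which both genes were expressed. Red points passed Fisher's exact test after adjustment and grey points did not. The differences run from -2.13 for Dynlt1b minus Dynlt1c to 0.91 for Kif21a minus Kif21b.

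Calls were also counted by the sequence that a spliced transcript shares with another gene. Of the 14 tested records with more than 10% of their 75-base windows in another gene, 9 were ASE (64.3%), and of the other 71 records, 11 were (15.5%), where the share over all tested records of the table is 14.1%. The same split was not made for the whole table, so that 64.3% has no background to be read against. Of the 7 tubulin records with at most 10% shared windows, 3 were ASE (42.9%), and of the 11 such dynein records, 2 (18.2%), both from Dynlrb1. Records of another gene overlapped 7 of the 17 ASE genes and 19 of the 61 tested genes. ASE records favored the allele with the reference base at most variants in 10 cases and the other allele in 10 cases. The part of shared sequence and of mapping towards the reference in individual calls was not tested.

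The motors' partners outside the name rule were examined in 7 lists of related genes, with 165 tested records and 19 ASE records of 17 genes (11.5%). The share over all tested records was 14.1%, so that the lists together lay somewhat below it. Dynactin and the regulators of dynein had 1 ASE record of 38, Actr10, an actin-related subunit of dynactin (607 CAST and 235 S129 reads). Among kinesin partners and other kinesins, 3 of 28 records were ASE, which were the scaffold Mapk8ip3 (625 and 103 reads), the light chain Klc3 (332 and 116) and the minus-end motor Kifc3 (333 and 80). All 3 were higher from CAST. Tubulin ligases, deacetylases and microtubule-associated proteins had 9 ASE records of 40 (22.5%, against the same 14.1%). Of these, Map1a, a neuronal microtubule-associated protein, had 200 CAST and 10 S129 reads (95.2%), and Mapt, which encodes tau, had 292 and 110 in both of its records. Ttll4 and Map1s were also higher from CAST, and Vash1, Atat1, Stmn3 and Agbl5 from S129. The tubulin folding and gamma-tubulin complex list had 1 of 25, Mzt2 (460 and 186 reads), the myosin regulation list 1 of 12, Mylpf (161 and 358), and the unconventional myosins 2 of 21, among them Myo19 (60 and 28). The axonemal dyneins, which move cilia, had 3 tested records, of which both records of Dnal1 were ASE towards CAST (90 and 25 reads in the coding record).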

How the data were processed

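Total RNA-seq libraries of 2 biological replicates (stranded kit, paired reads of 75 bases) were the only samples. Per the paper's methods and the submitters' processing notes, the authors aligned reads to mm10 (GRCm38.p6) with STAR (version 2.7.2c), removed duplicates with Picard, and selected 1 transcript per gene and transcript type from RNA polymerase II levels. For the deposited allelic counts the authors ran GATK ASEReadCounter at exonic and intronic variants of high mappability, with a stated minimum of 20 reads per variant that some records (from 8 reads) do not reach, then added up variants and both replicates. A read can be counted at several variants. TPM values, also deposited, rest on the authors' HTSeq counts scaled by length and library size. The TPM of the whole transcript was used here. The numbers of variants per record were used as deposited. The authors' ratio, fold change, p-value and class columns were not used.

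Member names, gene pairs, related lists and markers were chosen with earlier results of these data known. Named genes are all ASE members, the highest 5 of each family by TPM, genes with differing records and the listed pairs, and other members named were chosen after their values were seen. CAST and S129 counts were compared by two-sided exact binomial tests against equal shares without added reads, with Benjamini-Hochberg adjustment over the whole table, using Python (3.11.15) and SciPy (1.17.1), tested on simulated data. Standard errors and intervals of log2 differences follow from the counts, and intervals of shares are exact (Clopper-Pearson, 95%). An allele without reads was set to 3 reads, which gives an approximate lower bound of the fold change and not the exact interval limit. Pairs and record parts were compared by two-sided Fisher's exact tests, adjusted over 21 pairs and 15 genes. Coordinates in the table match GENCODE annotation of GRCm38. Shared sequence was counted as exact 75-base windows of the spliced transcript found on either strand in a transcript of a gene elsewhere. Alternatives comprised read and TPM minimums, the null share, beta-binomial spread, the fold and p limits and added reads. A related gene and a coding stretch are not reported here.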

Additional observations from a re-analysis of the deposited data

How the results depend on the processing

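No paired analysis was possible because the deposited counts are sums over both replicates, and for the same reason no replicate could be left out. All 20 ASE records kept their call with the pooled CAST share as null and with an adjusted p of at most 0.01. They also kept it with a beta-binomial correlation of 0.01. The same held with at least 20 allelic reads and without a TPM minimum, but these 2 settings were no real trial of the calls. Each ASE record had at least 49 reads, and dropping the TPM minimum only adds records. A minimum of 100 allelic reads left 17 of the 20 ASE records and a TPM of at least 5 left 14. In either setting this was 23.3% of the tested member records, against 11.9% and 11.7% of all tested records. With a correlation of 0.05, 6 member records were called, all among the 20, and 2 of the 19 related records. The 6 were 7.06% of the tested member records, against 3.06% of all tested records. A 1.5-fold minimum gave 33 member records (38.8%, against 25.8% of all tested records) and 33 related records. With a TPM of at least 5, 10 related records were called. Kif3c lost its call when 1 read was added to each allele. Of the 21 pairs, 3 passed at a correlation of 0.01 and 0 at 0.05. Alternatives chosen after seeing the data gave 11 ASE member records among those with at most 10% shared windows and 13 among those without an overlapping gene. These 2 alternatives were not counted over all records. The minimum of 100 reads tested 73 member records, the TPM of at least 5 tested 60, and the last 2 settings tested 71 and 65, against 85. The causes of the other changes were not tested. Depth limits Dynll1 and Kif22, with 14 and 10 reads.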
